A study of Bos taurus with 50 samples.

Results

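Genes of the Wnt, transforming growth factor-beta (TGF-beta), fibroblast growth factor (FGF), insulin-like growth factor (IGF), Notch, ephrin and semaphorin families were followed by messenger RNA sequencing in endometrial biopsies of lactating dairy cows. There were 49 such genes among the 18830 of the count table. They were selected on measured values: each had been listed by the study as differentially expressed with ovarian status, with week or with the uterine bacteria, and each had a symbol beginning with a family name (WNT, FZD, DKK, LGR, BMP, TGFB, INH, SMAD, FGF, IGF, ERBB, PDGF, MET, NOTCH, DLL, JAG, EPH, EFN, SEMA and the like). The lists paired 2321 symbols with Ensembl identifiers, 51 symbols fitted, and 2 of these were set aside by the rule. Of the 49 genes, 38 had been listed for status or week and 11 for the bacteria alone. The 7 genes EGFL8, EPHX1, EPHX2, FGFR1OP2, IGF2BP1, JAGN1 and TGFBI carry a family's letters in their symbol and are not themselves ligands, receptors or messengers of it, although the names of some, such as TGFBI (induced by TGF-beta) and IGF2BP1 (binding IGF2 mRNA), refer to one. They were kept and are described as a group of their own. FGF12, an intracellular homologue that is not secreted, was counted with the FGF family.

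The cows were Holstein x Jersey animals in first lactation, biopsied at week 5 and week 9 postpartum. CycW5 cows had a corpus luteum and were under progesterone (P4) at the week 5 biopsy, and gave 10 libraries at each week. NoCycW5 cows had no corpus luteum at week 5, with P4 below detection, and gave 12 libraries at week 5 and 11 at week 9. CycNoP4 cows were cycling but were no longer under P4 when biopsied at week 5, and gave 4 libraries at week 5 and 3 at week 9. The study left CycNoP4 out of its lists, which came from fewer CycW5 and NoCycW5 cows than the libraries used here. Those were the cows with complete data on bacteria and RNA, and the labels do not pick them out. Before week 9 every cow received GnRH, a progesterone insert, prostaglandin F2-alpha and GnRH again, timed so that the biopsy fell on day 13 of the estrous cycle. Week postpartum, synchronization treatment and day of the cycle therefore cannot be told apart in any comparison of weeks. The labels do not link libraries to cows. Library totals were 21592867 to 32813237 reads counted on genes, with a median of 28126022.5. Values are given as CPM, the reads of a gene scaled to the library total, after TMM normalization, in replicate order for CycNoP4 and as the lowest, median and highest library for the larger groups.

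Wnt ligands act through Frizzled receptors and LRP co-receptors, and Dickkopf proteins block the co-receptor. TGF-beta, activin and bone morphogenetic proteins signal through paired serine kinase receptors and SMAD proteins. FGFs, IGFs, ErbB ligands, hepatocyte growth factor and PDGF use tyrosine kinase receptors. In the uterus these pathways carry signals between stroma and epithelium, govern the growth of glands and change over the estrous cycle under estrogen and P4. Eph receptors, semaphorins and Notch proteins act mostly between neighbouring cells.

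A set of 4 libraries stood apart from the rest of their group, all of week 9: NoCycW5 replicates 4 and 8 and CycW5 replicates 5 and 6. Their median correlation of log2 CPM with their own group was 0.878 to 0.927, at least 0.03 below the median of the group. In NoCycW5 replicates 4 and 8, WNT11 was at 4.06 and 1.54 CPM, against 18.8 to 30.1 CPM in the other 9 libraries of that group and week. Values that rest on week 9 of these groups are therefore given with and without them where this changed a count of calls. No 2 libraries agreed within sampling noise: the smallest mean chi-square per gene over 1225 pairs was 27.9.

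The comparison of week 9 with week 5 in CycNoP4 set against each other libraries that had not served to list the genes, so all members that passed the filter on low counts were tested there. The filter and the estimate of spread came from all 50 libraries, those that had served included. Of 48 members tested, 12 rose and 7 fell (BH-adjusted P of 0.05 or less, edgeR's quasi-likelihood test, 4 against 3 libraries), and a fit of the 7 CycNoP4 libraries alone called 11. Of all 16120 genes tested, 19.6% passed, 9.74% higher and 9.85% lower at week 9. The member that could not be tested, FGF5, had 40 reads in all over 23 of 50 libraries. By family, 5 of 7 Wnt genes passed, 2 of 5 of TGF-beta and BMP, 2 of 4 of FGF, 0 of 4 of IGF, 0 of 1 of EGF (the receptor ERBB3), 0 of 3 of HGF and PDGF, 1 of 3 of Notch, 2 of 7 ephrin genes, 3 of 7 semaphorins and 4 of the 7 genes set apart above. The ephrin count was 4 with DESeq2, which also called EFNB2 and EPHB6, while limma-voom called 4 Wnt, 1 FGF and 3 of the genes set apart. With 1 of the 7 libraries left out, the counts were 3 to 5 for Wnt (3 without week 9 replicate 1 or 3), 1 to 2 for TGF-beta and BMP, 0 to 2 for FGF (0 without week 5 replicate 1 or week 9 replicate 3), 0 to 1 for HGF and PDGF, 0 to 1 for Notch, 1 to 2 for ephrin genes, 2 to 3 for semaphorins and 1 to 3 for the genes set apart. In the IGF family 1 gene, in HGF and PDGF 1 and in EGF 0 had an unadjusted P under 0.05; DESeq2 called none of these 8 genes and limma-voom called 1, of IGF. The median log2 fold change of the 48 was 0.20, against -0.02 over all genes, and their median absolute value was 0.94, against 0.42. In 21 of 48 members the libraries of week 5 and week 9 did not overlap, against 26.2% of all genes tested. Of the called members, 16 had been listed for the change between weeks in NoCycW5. The 10 tested members listed for the bacteria alone had a median absolute value of 0.53. Nothing particular to the members as a set is read from their differences to all genes. A biopsy holds several cell types, and a change in cell number cannot be told apart from a change in RNA per cell. The epithelial markers EPCAM and KRT8 changed in CycNoP4 by 0.15 with SE 0.42 and -0.36 with SE 0.24 on the log2 scale and did not pass. Of the other 4 markers measured, SPP1 of glands gave -2.12 with SE 1.04 and ESAM of endothelium 0.69 with SE 0.29. The weeks of ESAM did not overlap, at 22.9, 22.04, 20.7 and 35.2 CPM and then at 36.3, 44.5 and 41.05 CPM, and none of the 6 markers passed. The part of these cell types in the changes of CycNoP4 was not tested.

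**Figure D1:**
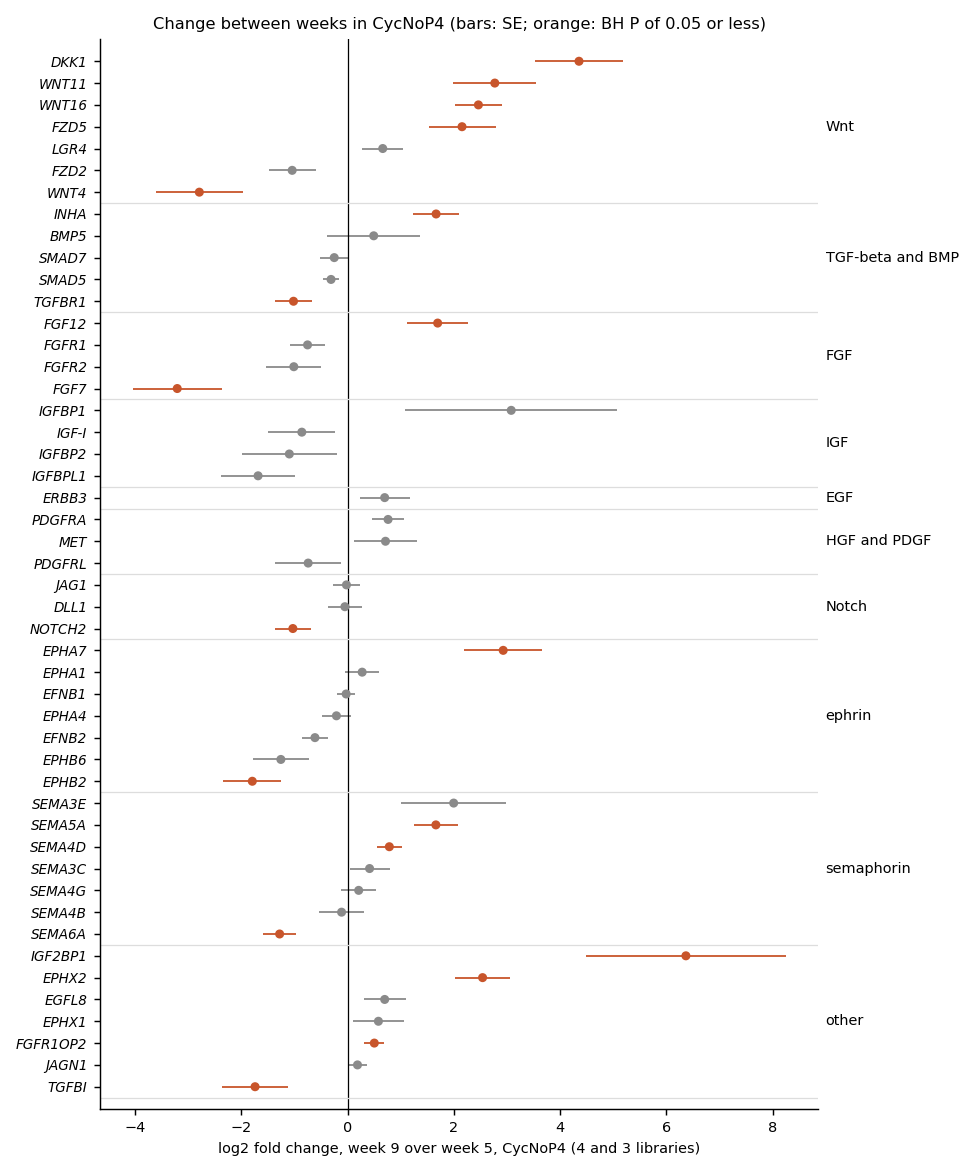
Log2 fold change of week 9 over week 5 in CycNoP4 for the 48 members tested, by family. Points are edgeR estimates, bars are standard errors, and orange marks a BH-adjusted P of 0.05 or less; 5 of the 7 Wnt genes are orange and none of the IGF genes is.

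Among Wnt genes, the inhibitor DKK1 (ENSBTAG00000014218), which encodes a secreted protein that binds LRP co-receptors, had the largest increase of the family. In CycNoP4 it was at 1.93, 2.97, 2.38 and 3.58 CPM at week 5 and at 71.2, 38.01 and 58.2 CPM at week 9. The groups lie far apart, and the log2 fold change was 4.35 with SE 0.83 (BH-adjusted P = 0.0015, edgeR). The ligand WNT16 (ENSBTAG00000002940) was at 5.57, 15.7, 9.09 and 11.1 CPM at week 5 and at 62.6, 36.9 and 72.1 CPM at week 9, again without overlap (log2 fold change 2.46, SE 0.44, BH-adjusted P = 0.00094, edgeR). The ligand WNT11 (ENSBTAG00000010820), known for signalling that does not need beta-catenin, was at 8.23, 4.56, 2.04 and 4.39 CPM at week 5. At week 9 it was at 28.4, 10.7 and 59.5 CPM, so its lowest week 9 library lay close to its highest of week 5 (log2 fold change 2.77, SE 0.78, BH-adjusted P = 0.013, edgeR). WNT11 did not pass without week 9 replicate 3 or with limma-voom, where BH-adjusted P reached 0.105. Over 13 alternatives its log2 fold change was 1.986 to 3.165.

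The receptor FZD5 (ENSBTAG00000020957) was at 4.89, 6.05, 2.38 and 3.11 CPM at week 5 and at 25.6, 10.3 and 18.97 CPM at week 9. It rose with a log2 fold change of 2.15 and SE 0.63 (BH-adjusted P = 0.016, edgeR), and without week 9 replicate 1 its BH-adjusted P was 0.0788. WNT4 (ENSBTAG00000022671), a ligand known for its part in uterine stroma and gland formation, went the other way. It was at 12.5, 2.84, 2.98 and 5.68 CPM at week 5 and at 0.58, 1.33 and 0.685 CPM at week 9, with no overlap, and fell by 2.79 on the log2 scale with SE 0.82 (BH-adjusted P = 0.016, edgeR). WNT4 lost its call without week 5 replicate 1 and without week 9 replicate 1 or 3, with BH-adjusted P of up to 0.0764. The receptor FZD2 was at 6.79, 20.1, 33.5 and 32.4 CPM at week 5 and at 8.19, 14.2 and 11.3 CPM at week 9 (log2 fold change -1.04, SE 0.44, BH-adjusted P = 0.084). LGR4, a receptor for R-spondins, was at 42.2, 59.2, 95.3 and 69.1 CPM and then at 130.2, 90.1 and 95.1 CPM (log2 fold change 0.66, SE 0.39, BH-adjusted P = 0.22). Neither FZD2 nor LGR4 passed the edgeR test, and in each the weeks overlapped. The overlap of FZD2 rested on week 5 replicate 1, and without it FZD2 was lower at week 9 (-1.35, SE 0.43, BH-adjusted P = 0.0401, edgeR).

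**Figure D2:**
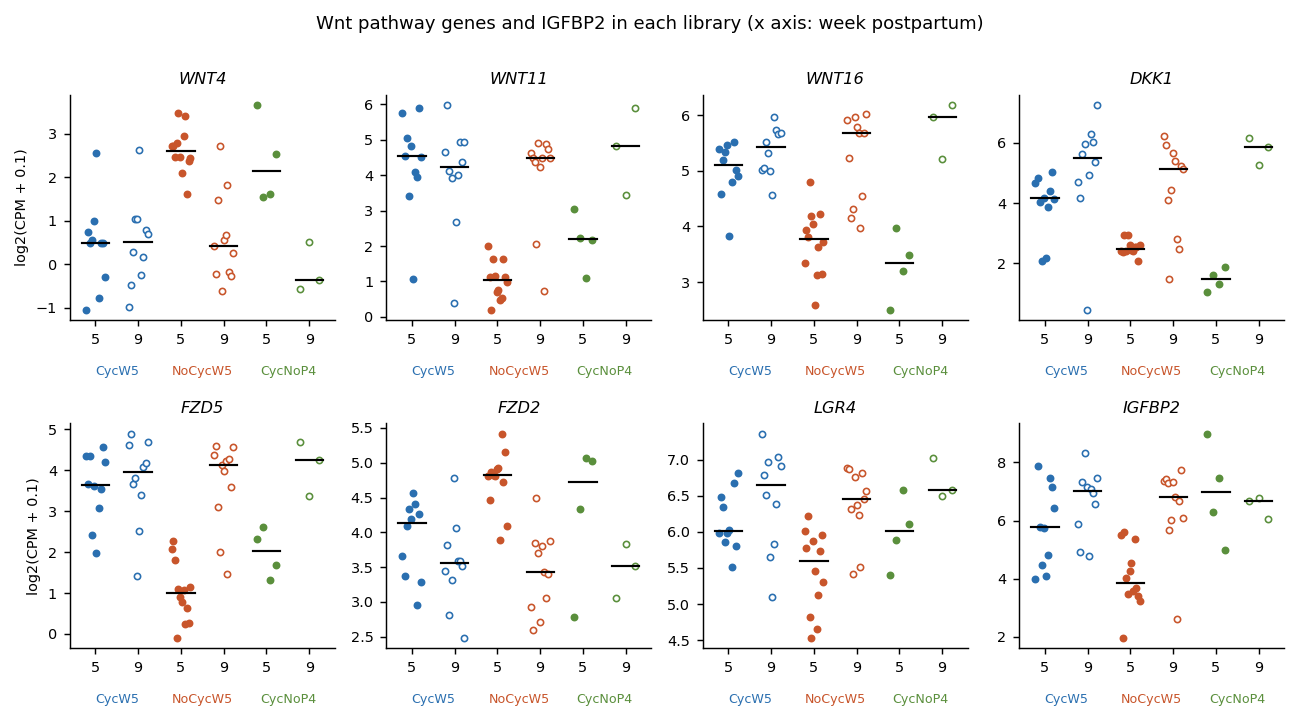
Level of the 7 Wnt genes and of IGFBP2 in each of the 50 libraries, as log2(CPM + 0.1), by group and week postpartum; filled points are week 5, open points week 9, and bars are group medians. In NoCycW5 and CycNoP4 most week 9 libraries of WNT11, WNT16, DKK1 and FZD5 lie above those of week 5, whereas the CycW5 libraries of the weeks overlap; IGFBP2 is at 31.6 to 509 CPM in CycNoP4 at week 5.

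In the families with tyrosine kinase receptors, FGF7, a stromal ligand of an epithelial form of FGFR2, was at 64.9, 4.10, 2.75 and 1.56 CPM in CycNoP4 at week 5 and at 1.47, 3.47 and 1.03 CPM at week 9. The decrease passed the test (log2 fold change -3.21, SE 0.84, BH-adjusted P = 0.0091, edgeR) but rested on 1 library. Without week 5 replicate 1 the log2 fold change was -0.50 and BH-adjusted P 0.612. FGF12, an intracellular homologue that is not secreted, was at 1.02, 3.63, 2.22 and 3.85 CPM at week 5 and rose to 8.29, 7.63 and 10.2 CPM (log2 fold change 1.69, SE 0.58, BH-adjusted P = 0.034, edgeR). The call of FGF12 was lost in 6 of 13 alternatives, with BH-adjusted P of up to 0.111. The receptor FGFR2 was at 58.6, 91.4, 141 and 204 CPM at week 5 and at 46.4, 62.0 and 75.4 CPM at week 9 (log2 fold change -1.01, SE 0.52, BH-adjusted P = 0.15). FGFR1 gave -0.76 with SE 0.32 and did not pass either, but passed without week 9 replicate 2 (-1.14, BH-adjusted P = 0.0397, edgeR).

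ERBB3, a receptor for neuregulins, was at 307, 199.6, 164 and 228 CPM at week 5 and at 555, 297 and 241 CPM at week 9 (log2 fold change 0.70, SE 0.47, BH-adjusted P = 0.29, edgeR). PDGFRA, a stromal PDGF receptor and the member with the highest mean CPM, was at 725, 269, 342 and 438 CPM and then at 802, 495 and 960.5 CPM (log2 fold change 0.76, SE 0.30, BH-adjusted P = 0.067). The weeks overlapped in both of these receptors. In PDGFRA the overlap rested on week 5 replicate 1, and the gene passed without it (1.10, SE 0.31, BH-adjusted P = 0.0255, edgeR) and without week 9 replicate 2 (BH-adjusted P = 0.0478). MET, the receptor of hepatocyte growth factor, gave 0.71 with SE 0.58 and PDGFRL -0.74 with SE 0.62.

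Of the TGF-beta and BMP genes, INHA, the alpha subunit of inhibin, was at 0.417, 0.363, 0.754 and 1.59 CPM in CycNoP4 at week 5 and at 2.39, 2.34 and 2.74 CPM at week 9. The weeks did not overlap (log2 fold change 1.66, SE 0.44, BH-adjusted P = 0.0095, edgeR). In a fit of the 7 CycNoP4 libraries alone its BH-adjusted P was 0.0961. TGFBR1, the type I receptor of TGF-beta, was at 40.98, 27.6, 55.0 and 30.2 CPM and fell to 20.6, 18.7 and 17.7 CPM (log2 fold change -1.02, SE 0.35, BH-adjusted P = 0.033, edgeR). Its call was lost in 6 of 13 alternatives, with BH-adjusted P of up to 0.117. SMAD5, SMAD7 and BMP5 did not pass, with log2 fold changes of -0.31, -0.25 and 0.49. BMP5 stayed at or below 0.363 CPM in all 7 libraries.

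Notch signalling was represented by 3 members. NOTCH2 was at 199, 192, 188 and 169 CPM at week 5 and at 95.7, 104 and 74.8 CPM at week 9, with a wide gap between the weeks (log2 fold change -1.03, SE 0.34, BH-adjusted P = 0.027, edgeR). Its call was lost without 4 of the 7 libraries in turn, with BH-adjusted P of up to 0.11. The ligands JAG1 and DLL1 gave -0.02 and -0.05 with SE 0.26 and 0.33. DLL1 was at 62.97 CPM in week 5 replicate 1 and at 14.8 to 27.6 CPM in the other 3 libraries of that week, and gave 0.51 with SE 0.31 without it. NOTCH2 and TGFBR1 were the members called here out of the 10 tested that had been listed for the bacteria alone. Of all genes tested, 19.6% were called, so nothing particular to these members is read from that count.

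Among receptors of ephrins, EPHA7 was at 2.09, 2.87, 9.92 and 7.27 CPM at week 5 and at 24.9, 33.7 and 68.0 CPM at week 9. It rose in every alternative tried (log2 fold change 2.93, SE 0.74, BH-adjusted P = 0.0075, edgeR). EPHB2 was at 21.1, 35.1, 18.1 and 26.7 CPM and fell to 5.73, 7.06 and 9.03 CPM, also without overlap (log2 fold change -1.80, SE 0.54, BH-adjusted P = 0.019, edgeR). It lost its call without week 5 replicate 2 and without week 9 replicate 1 or 2, with BH-adjusted P of up to 0.0848. The ligand EFNB2 was at 20.9, 18.97, 20.7 and 32.8 CPM and then at 11.5, 17.9 and 16.4 CPM. Its weeks did not overlap, yet the change did not pass (log2 fold change -0.62, SE 0.24, BH-adjusted P = 0.061, edgeR). The receptor EPHB6, chosen after its values were seen, was at 12.7, 10.8, 13.1 and 29.5 CPM and then at 8.60, 4.92 and 7.23 CPM, also without overlap (log2 fold change -1.26, SE 0.52, BH-adjusted P = 0.077, edgeR). With DESeq2 both passed, at BH-adjusted P of 0.0339 for EFNB2 and 0.0462 for EPHB6. The receptor EPHA1 and the ligand EFNB1 gave 0.27 with SE 0.32 and -0.03 with SE 0.17.

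Semaphorins bind plexins and guide the movement of cells. SEMA5A was at 23.7, 22.2, 44.1 and 47.5 CPM in CycNoP4 at week 5 and rose to 101.9, 83.4 and 141 CPM (log2 fold change 1.66, SE 0.42, BH-adjusted P = 0.0078, edgeR). SEMA6A was at 43.9, 47.6, 45.996 and 29.7 CPM and fell to 19.8, 17.8 and 14.1 CPM (log2 fold change -1.28, SE 0.31, BH-adjusted P = 0.0059, edgeR). These 2 membrane semaphorins thus moved in opposite directions, each without overlap. SEMA4D, which binds plexin-B1, was at 21.99, 27.7, 23.2 and 37.4 CPM and then at 52.6, 33.2 and 56.8 CPM, with overlap (log2 fold change 0.78, SE 0.24, BH-adjusted P = 0.02, edgeR). The SEMA4D call was lost in 5 of 13 alternatives, with BH-adjusted P of up to 0.125.

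**Figure D3:**
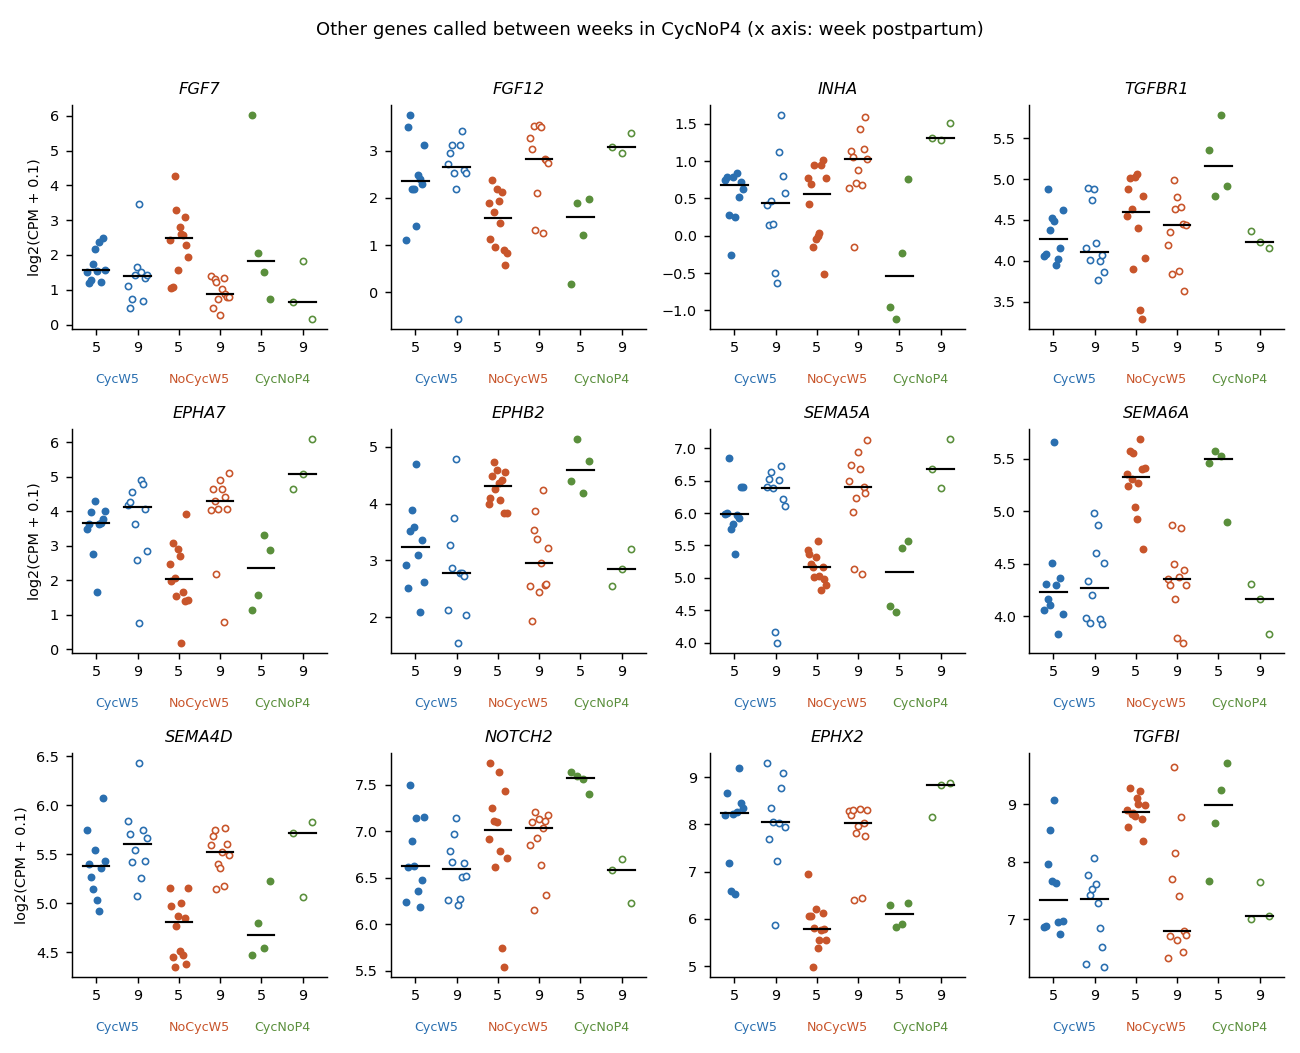
Level of 12 further members called between weeks in CycNoP4, as log2(CPM + 0.1), in each library by group and week; filled points are week 5, open points week 9, bars are medians. FGF7 has 1 library of 64.9 CPM in CycNoP4 at week 5, and EPHX2 at week 9 lies above every week 5 library of NoCycW5 and CycNoP4 in all 3 CycNoP4 libraries.

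Of the genes set apart because they are not ligands, receptors or messengers of a family, EPHX2, the soluble epoxide hydrolase of lipid epoxides, was at 78.5, 57.2, 59.6 and 80.4 CPM at week 5 and rose to 285, 453 and 466.2 CPM (log2 fold change 2.54, SE 0.52, BH-adjusted P = 0.0025, edgeR). TGFBI, an extracellular matrix protein induced by TGF-beta, was at 203, 409, 610.2 and 842 CPM and fell to 128, 202 and 133 CPM (log2 fold change -1.74, SE 0.61, BH-adjusted P = 0.04, edgeR). Its call was lost in 7 of 13 alternatives, with BH-adjusted P of up to 0.13. FGFR1OP2 passed at the threshold (log2 fold change 0.50, SE 0.19, BH-adjusted P = 0.0498, edgeR) and lost its call in 10 of 13 alternatives. EGFL8 gave 0.70 with SE 0.39 and did not pass. IGF2BP1, an RNA-binding protein, had no read in the 4 libraries of week 5, and 2, 5 and 26 reads in those of week 9. Against a floor of 3 counts over the week 5 libraries it was at least 14.4-fold higher at week 9. Without week 9 replicate 3 the bound was 4.86-fold and the call was lost, with BH-adjusted P of 0.114.

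DKK1, WNT16, EPHA7, SEMA5A, SEMA6A and EPHX2 were the 6 of the 19 called members that passed in all 13 alternatives. The count of called members was 9 to 17 when 1 of the 7 libraries was left out, lowest without week 9 replicate 3, with 10 without week 9 replicate 1. Of the 29 members not called, FZD2, FGFR1 and PDGFRA passed without 1 library.

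The genes had largely been listed for the change between weeks in NoCycW5, and that change is given here as a description. Of 45 members tested, 20 were called higher and 12 lower at week 9, against 35.7% of 15483 genes, 19.4% higher and 16.3% lower. Since the list was built on this comparison, nothing is read from the difference. The study's list for this comparison came from fewer cows, so the samples are unlike. Of the 29 members that the study listed for it and that could be tested, 27 were called in the present fit, and INHA and PDGFRA, with log2 fold changes of 0.54 and 0.30, were not. Without the 4 libraries that stood apart the count was 34.

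In NoCycW5 at week 5, WNT11 was at 1.05, 1.96 and 3.86 CPM as the lowest, median and highest library, and at week 9 at 1.54, 22.3 and 30.1 CPM. The weeks overlapped only through replicate 8 of week 9, a library that stood apart. The log2 fold change of WNT11 was 3.29 with SE 0.45, and 3.54 with SE 0.34 without the 4 libraries that stood apart. FZD5 was at 0.831, 1.89 and 4.71 CPM and then at 2.67, 17.4 and 23.9 CPM (log2 fold change 2.79, SE 0.37). DKK1 was at 4.05, 5.50 and 7.54 CPM and then at 2.68, 34.9 and 74.4 CPM, with 3 of the 11 libraries of week 9 at or below the highest of week 5 (log2 fold change 2.50, SE 0.46). WNT16 was at 5.91, 13.5 and 27.6 CPM and then at 15.6, 51.0 and 65.0 CPM (1.58, SE 0.24). WNT4 was at 2.98, 5.96 and 11.03 CPM and then at 0.56, 1.25 and 6.45 CPM (-1.77, SE 0.42). Without the 4 libraries that stood apart WNT4 gave -2.43 with SE 0.37. FZD2 gave -1.25 with SE 0.23. Of the 11 tested members that no list of status or week had named on NoCycW5 libraries, ERBB3 and LGR4 were called higher and PDGFRL lower. Of all genes tested, 35.7% were called, 19.4% higher and 16.3% lower, so nothing particular to these members is read from that count. ERBB3 had been listed for CycW5 alone, and its log2 fold change was 1.07 with SE 0.26 (BH-adjusted P = 0.0017, edgeR). In the same comparison 4 of 6 cell type markers were called, EPCAM and KRT8 of epithelium higher and SPP1 and VWF lower. SPP1 had been listed on this comparison, and KRT8 and VWF on NoCycW5 libraries of week 5. The part of cell types was not tested. LGR4, at 0.90 with SE 0.22, and PDGFRL, at -1.18 with SE 0.35, had also been listed with the bacteria on week 5 libraries that included NoCycW5, so their values are a description.

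CycNoP4 and NoCycW5 share no library, so the direction of change in CycNoP4 can be set against that in NoCycW5. Of the 29 members listed for the change in NoCycW5, 27 had the same sign in CycNoP4 and 16 were called there with that sign, a share of 55.2%. The count of 16 was 9 to 15 with 1 of the 7 libraries left out, and 9 without week 9 replicate 1 or 3. Of the other 1406 genes on the same list, 94.1% had the same sign and 42.9% were called with it, or 20.6% and 23% without those replicates. The rest of the list thus had nearly the same share of equal signs, and nothing particular to them is read from this. The members with the opposite sign were IGFBP2 and SEMA4B. The sign of SEMA4B and the size of the IGFBP2 value rested on replicate 1 of CycNoP4 at week 5, where SEMA4B was at 136 CPM against 24.1 to 34.8 CPM in the other 3 libraries. Without it, SEMA4B gave 0.82 and IGFBP2 -0.03, and 28 of 29 members had the same sign. Of the 12 tested members listed for status at week 5, 12 had the sign of CycW5 minus NoCycW5 in the CycNoP4 change between weeks, against 70.5% of the other 765 genes of that list, and 6 were called with it, against 23.3%. The count of 6 became 2 without week 9 replicate 1 or 3 and 3 without week 5 replicate 1, and 4 without week 5 replicate 3. The share of members was 16.7% without week 9 replicate 1 or 3, against 12.9% and 9.67% of the other genes. It was 25% against 16.6% without week 5 replicate 1, and 33.3% against 15.9% without week 5 replicate 3. With each other library left out it was 41.7% to 50%, against 17.4% to 21.3%. The count of 12 became 11, through JAG1, without week 5 replicate 1 or 4 or week 9 replicate 1. Most of these 12 were also on the list of weeks, where 94.1% of the other genes had equal signs. How many of the other 765 genes were on that list was not counted. Nothing particular to these members is therefore read from these shares.

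**Figure D4:**
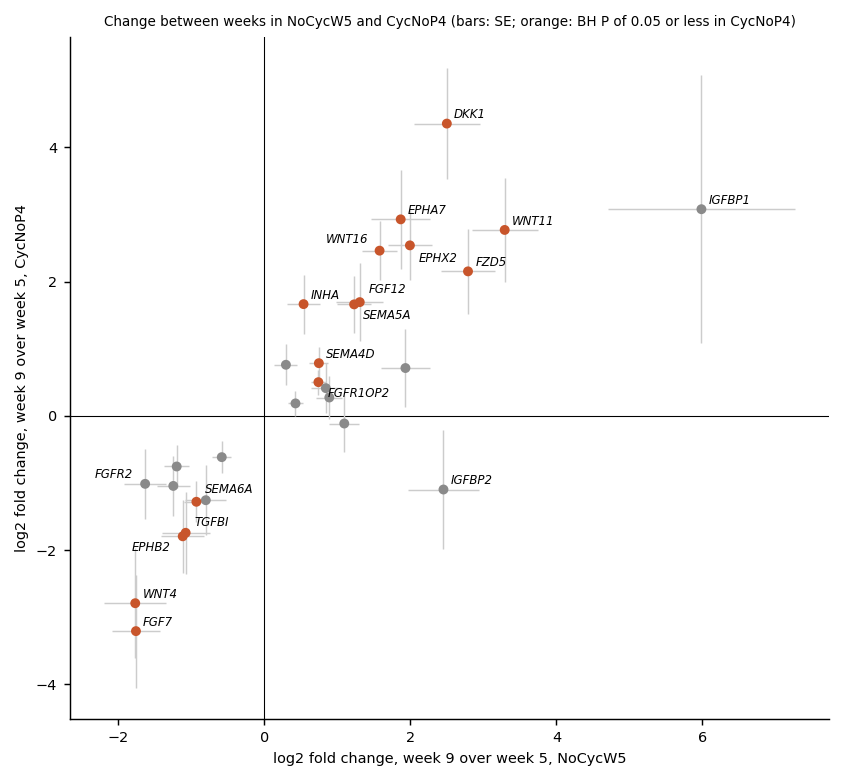
Log2 fold change of week 9 over week 5 in NoCycW5 (x axis), which served to list these genes, and in CycNoP4 (y axis), which did not, for the 29 members listed for NoCycW5 and tested; bars are standard errors and orange marks a BH-adjusted P of 0.05 or less in CycNoP4. Of the 29 points, 27 lie in the quadrants of equal sign, and IGFBP2 and the unlabelled SEMA4B do not.

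edgeR and DESeq2 called no IGF gene between weeks in CycNoP4, and limma-voom called IGFBPL1. The values of this family were chosen for display after they were seen. IGFBP2, which binds IGFs and limits their access to the receptor, was at 509, 77.7, 175 and 31.6 CPM in CycNoP4 at week 5 and at 102.8, 109 and 67.0 CPM at week 9 (log2 fold change -1.10, SE 0.89, BH-adjusted P = 0.39, edgeR). Without replicate 1 of week 5, the library at 509 CPM, the log2 fold change was -0.03 with SE 0.90. In NoCycW5 it was at 3.77, 14.5 and 48.1 CPM at week 5 and at 6.06, 112 and 212 CPM at week 9 (log2 fold change 2.45, SE 0.49). The difference between these changes, CycNoP4 minus NoCycW5, was added after the values were seen and was -3.55 with SE 1.08 for IGFBP2, and -2.49 with SE 1.04 without that replicate. IGFBP2 had been listed on the change in NoCycW5, so this is a description. In that comparison edgeR called 0 of 48 members, 8 had an unadjusted P under 0.05, and 0.0434% of all genes were called, 0.0186% higher and 0.0248% lower. IGFBP1, a binding protein known as a marker of the luteal endometrium in ruminants, was at 3.87, 0.132, 25.4 and 0.676 CPM and then at 137, 52.7 and 0.343 CPM in CycNoP4 (3.08, SE 2.0). Its libraries spread over more than the difference between weeks. IGFBPL1 was at or below 0.467 CPM in every library and gave -1.69 with SE 0.70 in CycNoP4.

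At week 5, CycNoP4 was also set against the other groups. Against NoCycW5, edgeR called 6 of 48 members, all higher in CycNoP4, where 14.7% of 15738 genes were called, 8.87% higher and 5.86% lower. They were EPHA1, IGF-I, IGFBP2, SEMA4B, SMAD7 and TGFBR1. In the same comparison KRT8 of epithelium was higher by 0.93 with SE 0.17 on the log2 scale and ESAM of endothelium had a log2 fold change of -0.84 with SE 0.22, 2 of 6 cell type markers called, and their part in these values was not tested. Both markers had been named by lists that used NoCycW5 libraries of week 5. IGF-I and TGFBR1 had not been listed on status or week, but NoCycW5 libraries served for the lists with bacteria that named them, so their values are a description. IGF-I, the growth factor that acts on the type 1 IGF receptor, was at 59.0, 68.4, 49.8 and 7.10 CPM in CycNoP4, and in NoCycW5 at 6.20, 11.3 and 38.2 CPM (log2 fold change 1.71, SE 0.46). TGFBR1 gave 0.75 with SE 0.26. Without CycNoP4 replicate 1 no member was called, and the count was 0 to 12 over the libraries left out.

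Against CycW5 at week 5, 8 of 48 members were called higher in CycNoP4 and 10 lower, where 17.7% of all genes were called, 8.7% higher and 9% lower. For 33 members, the lists of status and week had used neither group of this comparison. Of the 32 of them tested, EPHB2, FGF7, SEMA6A, TGFBI and TGFBR1 were higher and DKK1, EPHX2 and SEMA5A lower in CycNoP4. Of these, FGF7 and TGFBR1 had been listed with the bacteria on week 5 libraries. DKK1 was at 4.07, 17.7 and 32.8 CPM in CycW5 against 1.93 to 3.58 CPM in CycNoP4, without overlap (log2 fold change -2.75, SE 0.41, BH-adjusted P = 0.00026). EPHX2 was at 92.7, 303 and 583 CPM in CycW5 against 57.2 to 80.4 CPM, also without overlap (-2.08, SE 0.40, BH-adjusted P = 0.0015). SEMA6A was at 14.2, 18.7 and 50.5 CPM against 29.7 to 47.6 CPM (0.95, SE 0.23, BH-adjusted P = 0.0063, edgeR). The difference in FGF7, 2.46 with SE 0.61, rested on CycNoP4 replicate 1 and was -0.25 without it. The same CycNoP4 libraries serve here and in the comparison of weeks, so these are not independent of each other. Without replicate 1 the count of 18 became 11.

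Status itself is given as a description, since 14 members had been listed for it. At week 5, 19 of 45 members were higher and 11 lower in CycW5 than in NoCycW5 at the same threshold, where 26.6% of all genes were called, 15.2% higher and 11.4% lower. WNT11 was at 2.01, 23.1 and 59.0 CPM in CycW5 (log2 fold change against NoCycW5 3.68, SE 0.46). FZD5 was at 3.85, 12.3 and 23.7 CPM (2.63, SE 0.38) and WNT16 at 14.2, 34.4 and 45.7 CPM (1.26, SE 0.24). On the other side, WNT4 was at 0.386, 1.31 and 5.76 CPM (-1.99, SE 0.44) and FGFR2 at 36.3, 49.9 and 237 CPM, against 51.5, 176 and 268 CPM in NoCycW5 (-1.26, SE 0.29). Of the other members listed for both status and the change in NoCycW5, those tested gave 1.05 with SE 0.18 for EPHA1, 0.66 with SE 0.13 for SEMA4D, 0.62 with SE 0.11 for FGFR1OP2 and -0.48 with SE 0.13 for EFNB2. IGFBPL1, also on both lists, did not pass the filter of this fit and has no value.

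Between CycW5 and NoCycW5 at week 9, edgeR called 0 of 45 members, 2 had an unadjusted P under 0.05, DESeq2 and limma-voom called 0, and 0.00646% of all genes were called. WNT11, for example, had a median of 18.8 CPM in CycW5 and 22.3 CPM in NoCycW5, and a log2 fold change of 0.16 with SE 0.43. INHA, EFNB1 and EGFL8 had been listed for this comparison on a smaller set of cows, so the samples are unlike. Here they gave -0.44 with SE 0.24, -0.14 with SE 0.09 and 0.23 with SE 0.23. In CycW5 between weeks, edgeR called 0 of 45, 3 had an unadjusted P under 0.05, and 0.0452% of all genes were called. LGR4 and ERBB3, which had been listed for CycW5 on that smaller set of cows, gave 0.40 with SE 0.23 and 0.43 with SE 0.28. DKK1 gave 1.54 with SE 0.47 and a BH-adjusted P of 0.12 with edgeR, 0.0452 with DESeq2, and 0.0419 without the 4 libraries that stood apart. The difference between the changes of NoCycW5 and CycW5 was called for 13 of 45 members, 9 of them positive and 4 negative, against 7.82% of all genes, 4.99% positive and 2.83% negative. This too is built on the comparisons that listed the genes.

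Of 258 other genes of these pathways that had been put on a list, 37 had an identifier, each through the study's own lists, and so were selected in the same way. In CycNoP4, 7 of 37 rose and 3 fell between weeks, where 19.6% of all genes were called, 9.74% higher and 9.85% lower. FST, follistatin, which binds activin, was at 5.08, 10.01, 8.26 and 5.65 CPM at week 5 and at 108, 86.9 and 146 CPM at week 9 (log2 fold change 3.97, SE 0.84, BH-adjusted P = 0.0031, edgeR). The Notch target HES1 was at 37.6, 42.6, 34.9 and 42.6 CPM and fell to 13.4, 17.4 and 17.7 CPM (-1.29, SE 0.29, BH-adjusted P = 0.004, edgeR). NUMB, an inhibitor of Notch, rose by 0.81 with SE 0.20 (BH-adjusted P = 0.0072, edgeR). HES1, NUMB and MIB2 were the 3 called of 8 other Notch genes, and HEY2, another Notch target, gave 0.87 with SE 0.50 and did not pass. MIB2, a ubiquitin ligase of Notch ligands, NRG2, a ligand of ErbB receptors, MST1, a ligand of the MET family, and PGF, placental growth factor, rose by 1.22, 1.83, 1.42 and 1.80. LTBP1, which holds TGF-beta in the matrix, and GDF15 had log2 fold changes of -1.60 and -2.66, and ROR2, a receptor of non-canonical Wnt ligands, gave -0.29 with SE 0.34 and did not pass. FST, HES1 and NUMB passed in all 13 alternatives. Calls were lost in 2 of 13 alternatives for MIB2, 3 for NRG2, 4 for MST1, 4 for LTBP1 and 7 for PGF, and in 5 of 12 for GDF15. LTBP1 was at 182, 127, 530 and 153 CPM at week 5, and without replicate 3, the library at 530 CPM, its log2 fold change was -0.91. In NoCycW5, 16 of the 37 were called higher and 10 lower, against 35.7% of all genes, 19.4% higher and 16.3% lower, with FST at 3.29, PGF at 2.30, ROR2 at -1.14 and LTBP1 at -1.60.

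Of 40 marker genes of cell types, 6 had an identifier, each through the study's own lists, and so were selected on measured values. KRT8, VWF and CDH5 had been listed for status at week 5. SPP1 had been listed for the change in NoCycW5, EPCAM for the change in CycW5 and ESAM with the bacteria. EPCAM and KRT8, 2 of 5 epithelial markers, summed to a median of 307 CPM in NoCycW5 at week 5 and 637 CPM at week 9, and to 474 and 653 CPM in CycW5. EPCAM is the more abundant, and no library was at 0 for either. In CycNoP4 the sum was 434 to 742 CPM at week 5 and 412 to 792 CPM at week 9. VWF, CDH5 and ESAM, 3 of 5 endothelial markers with VWF the most abundant, summed to medians of 432 and 320.5 CPM in NoCycW5 at week 5 and week 9, 289 and 299 CPM in CycW5, and 319 CPM at each week in CycNoP4, where ESAM alone did not overlap between weeks. SPP1, 1 of 3 gland markers, had medians of 35.7 and 18.4 CPM in NoCycW5, 34.8 and 10.97 CPM in CycW5, and 45.0 and 11.5 CPM in CycNoP4. The epithelial sums of the weeks overlapped in each of the 3 groups. Between weeks in NoCycW5, 4 of the 6 markers were called, where 35.7% of all genes were called, 19.4% higher and 16.3% lower. EPCAM at 1.09 and KRT8 at 0.64 were higher, and SPP1 at -1.78 and VWF at -0.62 lower. Between CycW5 and NoCycW5 at week 5, 4 were called as well, where 26.6% of all genes were called, 15.2% higher and 11.4% lower. EPCAM at 0.71 and KRT8 at 0.78 were higher in CycW5, and VWF at -0.80 and CDH5 at -0.43 lower. Apart from EPCAM in NoCycW5, these called markers had been listed on libraries of the comparison, so their values are a description. The part of cell types in these comparisons was not tested.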

How the data were processed

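RNA of 50 endometrial biopsies was measured. The authors prepared stranded mRNA libraries and read 75 bases from one end. After trimming, Hisat2 placed the reads on UMD3.1 and FeatureCounts assigned them to Ensembl genes. The deposited values are raw counts. The members and the lists were chosen with earlier results of these data known. The study's lists chose the members, paired symbols with identifiers and gave the comparison on which each gene had been listed; their values were not used.

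Counts were fitted in R 4.3.3 with edgeR 4.0.16 (TMM, filterByExpr, robust quasi-likelihood) as group means: 4 groups for CycW5 and NoCycW5, the 3 groups of week 5, and all 6 groups for CycNoP4 between weeks. P-values were BH-adjusted over all genes tested, and 0.05 or less was called. P is printed for a member only where no list that named it had used a group of the comparison. Cow and bacteria were not fitted. Nothing in the labels says which libraries of a group share a cow across weeks, so P-values measure the spread between libraries.

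Alternatives were the size factors of DESeq2, DESeq2 1.42.0, limma-voom (limma 3.58.1), no filter, at least 1 CPM in 10 libraries, other sets of libraries in the fit, and each library left out in turn. Leaving out the 4 libraries that stood apart, leaving out CycNoP4 libraries for the members not called, and the difference between the changes of CycNoP4 and NoCycW5, were added after the data were seen. Values were given for members listed for both status and the change in NoCycW5, members listed for CycW5 or for week 9, members called in CycNoP4 between weeks, the 3 highest and 3 lowest in mean CPM, and all Wnt genes. Of the other pathway genes, values were given for the 2 higher and 2 lower with the smallest P in NoCycW5 and at most 8 called in CycNoP4. The fits were tested on simulated data. Between weeks in CycNoP4, 38% of simulated 2-fold changes and 77% of 4-fold changes were called, with 0.0251% of unchanged genes. A member that did not pass there may therefore still have changed. For CycW5 against NoCycW5 at week 5 the shares were 71% and 93%, and for CycNoP4 against NoCycW5 67% and 84%.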

Additional observations from a re-analysis of the deposited data

Results flagged for a closer look

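The CycW5 groups of 10 libraries and the 4 CycNoP4 libraries of week 5 were checked for single libraries far from the rest. Of 85 combinations of a named gene and a group, 10 had 1 such library on the log2 scale, where chance flags about 5%. NoCycW5 at either week and CycNoP4 at week 9 were not checked in this way. CycW5 replicate 6 at week 5 held 4 of them: EFNB2 at 30.1 CPM (12.2 to 17.2 CPM in the other libraries), FGFR2 at 237 CPM (36.3 to 79.2 CPM), WNT11 at 2.01 CPM (10.5 to 59.0 CPM) and SEMA6A at 50.5 CPM (14.2 to 22.6 CPM). CycW5 replicate 6 at week 9 held 3, with EFNB2 at 6.75 CPM, FGF12 at 0.581 CPM and FGF7 at 11.01 CPM. DKK1 was at 1.26 CPM in CycW5 replicate 5 at week 9 (17.9 to 153 CPM in the others), INHA at 0.737 CPM in CycW5 replicate 4 at week 5 (1.09 to 1.68 CPM), and SEMA6A at 29.7 CPM in CycNoP4 replicate 4 at week 5 (43.9 to 47.6 CPM).

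The change between weeks differed between NoCycW5 and CycW5 for 13 members, as the change of NoCycW5 minus that of CycW5 on the log2 scale. It was positive for IGFBP1 at 5.32, WNT11 at 3.52, FZD5 at 2.55, EPHX2 at 1.88, MET at 1.58, WNT16 at 1.24, SEMA5A at 1.13, EPHA1 at 0.96 and FGFR1OP2 at 0.58. It was negative for WNT4 at -1.88, FGF7 at -1.68, FGFR1 at -1.03 and SEMA6A at -0.90. These genes had been listed on the comparisons from which the difference is built, so the values are a description.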

How the results depend on the processing

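No paired analysis was possible because the labels do not link libraries to cows. Of 218 counts of called members under an alternative, 205 stayed within 1.5 times the main count. The others concerned 4 comparisons. In CycNoP4 between weeks the count of 19 became 11 with only the libraries of the compared groups, and 9 to 17 with 1 library left out. For CycNoP4 against NoCycW5 at week 5 the count of 6 became 0 to 12 with 1 library left out, and 3 without NoCycW5 replicate 5, 8 or 12. For CycNoP4 against CycW5 it was 11 to 22. In CycW5 between weeks the count of 0 became 1, DKK1, with DESeq2 and without the 4 libraries that stood apart. Of 3226 log2 fold changes of called named genes, 2981 stayed called, 244 kept their direction without passing and 1 reversed: FGF7 in CycNoP4 against CycW5 at week 5 without CycNoP4 replicate 1, at -0.25, within -0.25 to 2.85 over the libraries left out. The cause was not tested. Of the 29 members not called between weeks in CycNoP4, 3 (FZD2, FGFR1, PDGFRA) gained a call and 7 changed sign with 1 library left out. The ranges of the latter were -0.006 to 0.822 for BMP5, -0.291 to 0.508 for DLL1, -0.163 to 0.118 for EFNB1, -0.098 to 0.936 for EPHX1, -0.257 to 0.216 for JAG1, -0.366 to 0.815 for SEMA4B and -0.015 to 0.53 for SEMA4G. BMP5, FGF5, IGF2BP1 and IGFBPL1, each with a mean of at most 0.22 CPM, did not pass the filter in the fit of 4 groups.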
